A study of Apis mellifera with 8 samples.

Results

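Ecr, Usp, E74 and Cyp314a1 stand at successive steps of ecdysone signalling, and their RNA was compared between the larval heads of the female castes of the honey bee, Apis mellifera. They were taken by name, as gene 406084 (Ecr), gene 409227 (Usp), gene 408758 (E74) and gene 411057 (Cyp314a1), together with every transcript that RefSeq pairs with them. These are 4 of the 9161 genes and 26 of the 28739 transcripts in the data. The 96hQ group holds the heads of 4 larvae reared as queens in cups primed with royal jelly, and the 96hW group holds the heads of 4 larvae left to the hive as workers, all collected 96 h after hatching. No genetic change or drug treatment separates the groups, each library is the head of a single larva, and the number of colonies is not given in the sources used here. Heads are numbered within a caste as in the labels.

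Ecdysteroids are the steroid hormones that set the timing of insect moults and of metamorphosis. The prothoracic gland releases ecdysone, and peripheral tissues convert it to the active hormone, 20-hydroxyecdysone. The hormone binds the ecdysone receptor (EcR), a nuclear receptor that works as a heterodimer with Ultraspiracle (Usp), the insect counterpart of the vertebrate retinoid X receptor. In Drosophila the bound receptor turns on a small set of primary response genes, among them E74, E75 and the Broad complex, whose products are transcription factors.

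Estimated counts summed to between 22057972 and 23344818 per 96hQ library and between 19139730 and 21848474 per 96hW library. Counts were scaled for library size and composition (TMM) and are given below as normalized counts, and fold changes are 96hQ over 96hW from edgeR's quasi-likelihood test, adjusted over all 8151 genes or 20768 transcripts tested, with a threshold of 0.01. Nervous tissue genes were present in every head, with all 11 matched markers above 0 in each and a summed level of 80.3 to 137.7 TPM in 96hQ and 185.6 to 240.8 TPM in 96hW. The 5 fat body storage genes summed to 7459 to 18921 TPM in 96hQ and 6870 to 62330 TPM in 96hW, where head 1 held the lowest value. The 21 cuticle genes summed to 64274 to 118258 TPM in 96hQ, highest in head 3, and 20791 to 35711 TPM in 96hW. The part of these tissues in the results below was not tested. In whole heads, fewer cells that express a gene and less RNA per cell cannot be told apart.

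Per transcript length, the receptor and its partner were the more abundant of the 4 genes in 7 of the 8 heads. Cyp314a1 was far below them in every head. With 4 heads in each caste, Ecr averaged 110.0 ± 10.4 TPM (SD) in 96hQ and 160.3 ± 27.9 TPM in 96hW. Usp spanned 61.6 to 96.8 TPM in 96hQ and 90.3 to 139.8 TPM in 96hW. E74 averaged 76.1 ± 56.3 TPM in 96hQ and 74.7 ± 5.1 TPM in 96hW. Cyp314a1 averaged 2.70 ± 0.90 TPM in 96hQ and 6.44 ± 1.34 TPM in 96hW. The order from high to low was Ecr, Usp, E74, Cyp314a1 in 7 of the 8 heads. In 96hQ head 3 alone E74 came first, at 160.2 TPM against 105.8 TPM for Ecr. The levels of Ecr and Usp did not overlap within either caste, although the lowest Ecr level of a worker head (141.0 TPM) was close to the highest Usp level (139.8 TPM). Usp and E74 did not overlap among the workers and overlapped among the queens.

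None of the 4 genes passed an adjusted p of 0.01 with edgeR, where 8.61% of all genes tested did (5.21% with 96hQ higher and 3.4% with 96hW higher). Ecr and Cyp314a1 passed 0.05, as did 26.9% of all genes. Ecr, Usp and Cyp314a1 had an unadjusted p under 0.05, which 41% of all genes also had. DESeq2 called Ecr and Cyp314a1, as it did 23.2% of all genes, and limma-voom called none of the 4 and 8.48% of all genes. Both Ecr and Cyp314a1 were higher in all 4 workers than in any queen. Such a gap between castes was seen in 31.9% of all genes, with the workers above in 14.7% and the queens above in 17.2%. The log2 fold change was negative for 3 of the 4 genes and for 49.3% of all genes.

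Cyp314a1, known as shade in Drosophila, is the cytochrome P450 that hydroxylates ecdysone to 20-hydroxyecdysone. It had 50.02, 68.9, 88.3 and 31.5 normalized counts in 96hQ heads 1 to 4, against 143.9, 141.6, 91.8 and 119.2 in 96hW heads 1 to 4. The highest queen head, head 3, was just below the lowest worker head, also head 3. The fold change was 0.48 (95% confidence interval 0.29 to 0.79), or -1.06 on the log2 scale (SE 0.31, adjusted p = 0.0407 from edgeR). The adjusted p was 0.00641 with DESeq2 and between 0.0190 and 0.0983 over the fits that leave out 1 head. These are few reads, since the heads held between 34.5 and 134.2 estimated counts. The castes held apart in the more abundant transcript, NM_001040257, which is 1554 bases long. It had 50.6, 70.6, 43.6 and 32.1 normalized counts in 96hQ heads 1 to 4, against 113.3, 115.3, 90.7 and 117.9 in 96hW heads 1 to 4 (log2 fold change -1.15, SE 0.30, adjusted p = 0.0586 from edgeR and 0.00119 from DESeq2). The other transcript, XM_006570167, had 44.7 normalized counts in 96hQ head 3, against 27.3 and 23.5 in 96hW heads 1 and 2, and none in the other heads. Leaving it aside therefore lowered the value of 96hQ head 3. The nearest heads of the castes were then 96hQ head 2, at 70.6 normalized counts, and 96hW head 3, at 90.7. The reference table lists 11 transcripts for this gene, of which 2 were found in the files, so the sum may cover part of its RNA.

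Ecr, which encodes the hormone-binding receptor, was lower in every queen head than in any worker head. It had 9861, 7119, 9146 and 7861 normalized counts in 96hQ heads 1 to 4, against 13032, 10809, 11087 and 10628 in 96hW heads 1 to 4. The fold change was 0.75 (95% confidence interval 0.62 to 0.90), with an adjusted p of 0.0331 from edgeR and 0.00465 from DESeq2. The paper describes expression of this gene, and its chromatin, as significantly worker-specific. Its test of expression was another one, sleuth's likelihood ratio test on transcript levels, and chromatin was not examined here. Over the fits that leave out 1 head the log2 fold change stayed between -0.50 and -0.35, with an adjusted p between 0.0207 and 0.0841. The 96hW head 1, lowest of the workers for fat body storage genes, was the highest for Ecr. Without it the log2 fold change was -0.35 (SE 0.12, adjusted p = 0.0699 from edgeR).

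One transcript of Ecr carried most of its counts in every head. XM_016913298, the longest at 6546 bases, held 83.4%, 79.2%, 78.4% and 84.0% of the counts of the gene in 96hQ heads 1 to 4, against 82.5%, 88.1%, 83.9% and 81.9% in 96hW heads 1 to 4. Its own level was 8312, 5773, 7174 and 6728 normalized counts in 96hQ heads 1 to 4, against 10512, 9399, 9185 and 8606 in 96hW heads 1 to 4 (log2 fold change -0.43, SE 0.12, adjusted p = 0.0692 from edgeR). Again no head of one caste reached the other. NM_001159355 (2782 bases) held a mean share of 17.8% (SD 2.5) among queens and 14.7% (SD 2.8) among workers. Its level overlapped between castes, with 1241 to 1846 normalized counts in 96hQ and 1149 to 2087 in 96hW (log2 fold change -0.12, SE 0.19, adjusted p = 0.770 from edgeR). XM_006568053 (3328 bases) had 44.4 to 126.3 normalized counts in 96hQ and 124.9 to 132.1 in 96hW (log2 fold change -0.61, SE 0.32, adjusted p = 0.295 from edgeR). NM_001098215 was at 0 in all heads but 96hW head 1, with 10.5 normalized counts, and did not pass the filter on low values. All 3 Ecr transcripts that passed it had a negative log2 fold change, as did 51.1% of all transcripts tested. The share of the gene held by XM_016913298 differed by -2.85 percentage points (two-sided exact permutation test, p = 0.257, adjusted p = 0.463 over 18 shares).

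**Figure D1:**
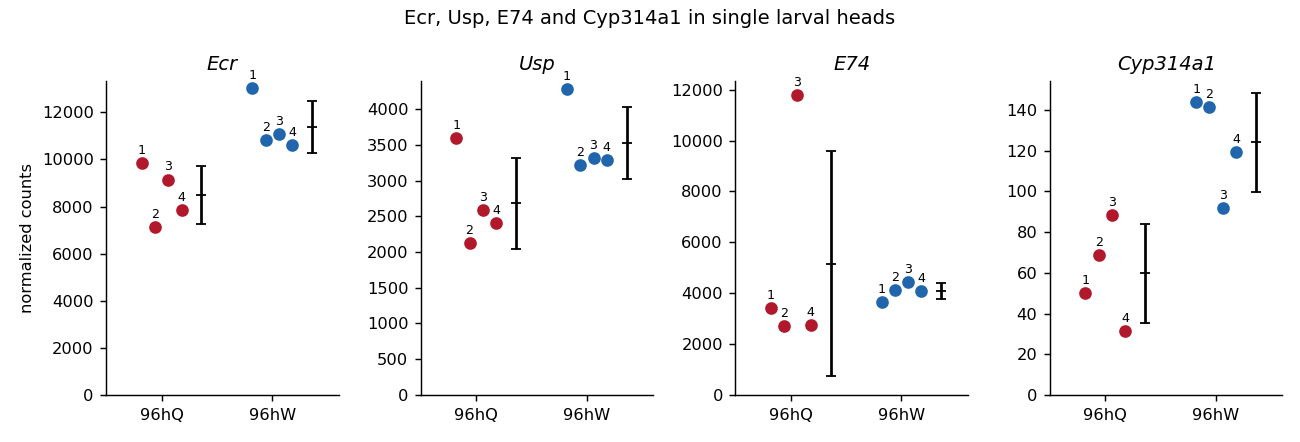
Normalized counts (vertical axis, from 0) of Ecr, Usp, E74 and Cyp314a1 in the 4 heads of 96hQ (red) and of 96hW (blue), each point a head with its number, and each bar the mean ± SD of 4 heads. The castes did not overlap for Ecr and Cyp314a1, and 96hQ head 3 stood at 11786 normalized counts of E74.

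Usp, the partner of EcR in the heterodimer, lay in the same direction with castes that overlapped. It had 3601, 2128, 2587 and 2406 normalized counts in 96hQ heads 1 to 4, against 4282, 3219, 3320 and 3288 in 96hW heads 1 to 4. Queen head 1 lay above 3 of the 4 worker heads, and the other queen heads lay below all of them. The fold change was 0.76 (95% confidence interval 0.58 to 1.00, log2 fold change -0.40, SE 0.17, adjusted p = 0.121 from edgeR). Leaving out 1 head gave log2 fold changes between -0.57 and -0.29 and an adjusted p between 0.0184 and 0.252. Head 1 was the highest of its caste for both Ecr and Usp, in queens and in workers.

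Of the 10 Usp transcripts, 9 passed the filter on low values and none held most of the counts. The largest on average, XM_006561550 (4334 bases), held 40.8%, 17.8%, 21.2% and 42.1% of the gene in 96hQ heads 1 to 4, against 34.3%, 37.6%, 35.5% and 29.4% in 96hW heads 1 to 4. XM_006561552 (1829 bases) was steadier, with 16.2% to 21.7% in 96hQ and 18.1% to 21.6% in 96hW. Neither share differed between castes beyond the spread (two-sided exact permutation test, p = 0.543 and p = 0.943, adjusted over 18 shares p = 0.720 and p = 0.943). At the level of normalized counts, XM_006561550 had 387.3 to 1487 in 96hQ and 954.2 to 1435 in 96hW (log2 fold change -0.46, SE 0.39), and XM_006561552 had 352.0 to 768.4 in 96hQ and 589.3 to 854.2 in 96hW (log2 fold change -0.33, SE 0.23). Both overlapped between castes.

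The remaining Usp transcripts were smaller. In normalized counts, XM_006561551 had a mean of 253.9 in 96hQ and 443.7 in 96hW, XM_006561553 one of 223.7 in 96hQ and 301.7 in 96hW, and XM_006561547 one of 198.2 in 96hQ and 320.9 in 96hW. XM_006561549 averaged 163.9 in 96hQ and 169.8 in 96hW, and XM_006561554, the only Usp transcript with a positive log2 fold change (0.93, SE 0.53), averaged 114.3 in 96hQ and 59.9 in 96hW. A further pair was uneven among heads of a caste: NM_001011634 ran from 5.73 to 538.6 normalized counts in 96hQ and from 11.5 to 267.9 in 96hW, and XM_006561548 from 0 to 89.4 in 96hQ and from 50.3 to 272.8 in 96hW. XM_006561546 had 597.3 normalized counts in 96hQ head 2, 0.95 in 96hQ head 1 and none in the other heads, and did not pass the filter. No Usp transcript passed the test (adjusted p between 0.341 and 0.990 from edgeR). The error of sharing reads among such overlapping transcripts was not measured.

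The balance of receptor to partner differed little between the castes on average. The ratio of Ecr to Usp in TPM was 1.30, 1.71, 1.70 and 1.59 in 96hQ heads 1 to 4, against 1.44, 1.49, 1.59 and 1.56 in 96hW heads 1 to 4. The castes overlapped, and the difference of the mean log2 ratios was 0.04 (two-sided exact permutation test, p = 0.714). Shifts in the ratio between 0.82-fold and 1.19-fold were not rejected by the same test at 0.05. The sign of the difference turned on a single head and on the scale, since it was -0.0009 without 96hQ head 2 and -0.015 on estimated counts.

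E74 encodes an ETS-domain transcription factor, and in Drosophila it is a primary target of the hormone with forms that start from different promoters. Which of the honey bee transcripts correspond to those forms is not given in the sources used here. Summed over transcripts, E74 had 3426, 2698, 11786 and 2734 normalized counts in 96hQ heads 1 to 4, against 3664, 4110, 4441 and 4087 in 96hW heads 1 to 4. Queen head 3 exceeded every other head, and the other 3 queen heads lay below every worker head. Over all heads the log2 fold change was 0.34 (SE 0.48, adjusted p = 0.627 from edgeR). Without 96hQ head 3 it turned to -0.46 (SE 0.11, adjusted p = 0.0184 from edgeR), with means of 2953 ± 410 in 96hQ and 4076 ± 318 in 96hW (SD, n = 3 and 4 heads). In that head E74 was 4.02-fold over the geometric mean of the other queens. It was among the 6.5% of genes that were at least 2-fold up there by the same measure, and among the 3.25% where it stood apart above the other queens by Dixon's test.

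The excess in queen head 3 sat in transcripts other than the usual main one. XM_006558379 (4596 bases) was the most abundant form in all other heads, and had 2112, 1634, 1969 and 1492 normalized counts in 96hQ heads 1 to 4, against 2332, 2585, 2899 and 2580 in 96hW heads 1 to 4. Head 3 was not apart from the other queens for this form, and all queens lay below all workers. The log2 fold change was -0.53 (SE 0.13, adjusted p = 0.0443 from edgeR and 0.00171 from DESeq2). XM_006558378 (5027 bases) had 376.1, 384.7, 5604 and 470.8 normalized counts in 96hQ heads 1 to 4, against 133.3, 253.0, 132.1 and 264.7 in 96hW heads 1 to 4. All 4 queens exceeded all 4 workers for it, head 3 by far the most, at 13.7-fold over the geometric mean of the other queens. The log2 fold change was 3.12 (SE 1.02, adjusted p = 0.109 from edgeR) and 1.07 without that head (SE 0.30, adjusted p = 0.0801 from edgeR). The means were then 410.5 ± 52.4 in 96hQ and 195.8 ± 73.0 in 96hW (SD, n = 3 and 4 heads).

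**Figure D2:**
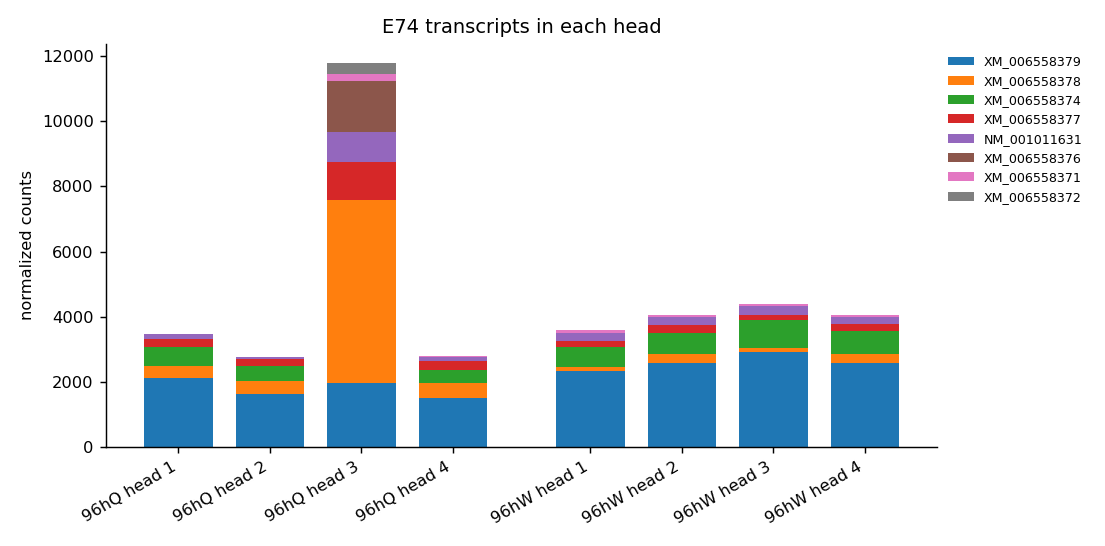
Normalized counts of E74 in each head (96hQ left, 96hW right), stacked by transcript for the 8 transcripts with any count. The bottom segment, XM_006558379, was 1969 normalized counts in 96hQ head 3, within the range of the other queens, while XM_006558378 was 5604 there.

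The smaller E74 transcripts were likewise high in queen head 3, with 1 exception. XM_006558377 (5512 bases) had 257.7, 212.6, 1183 and 280.8 normalized counts in 96hQ heads 1 to 4, against 178.4, 248.7, 173.6 and 201.6 in 96hW heads 1 to 4 (log2 fold change 1.27, SE 0.56, adjusted p = 0.227 from edgeR). Without 96hQ head 3 its log2 fold change was 0.32 (SE 0.19, adjusted p = 0.358 from edgeR). NM_001011631 (1741 bases) had 143.2, 42.4, 913.0 and 116.3 normalized counts in 96hQ heads 1 to 4, against 227.4 to 252.4 in the 96hW heads, so that queen heads 1, 2 and 4 lay below all workers. XM_006558371 followed the same pattern at a lower level, with 217.9 normalized counts in 96hQ head 3 and 10.6 to 32.1 in the other queens, against 43.8 to 73.96 in 96hW. The log2 fold changes over all heads were 0.31 (SE 0.83) for NM_001011631 and 0.13 (SE 0.95) for XM_006558371, and both turned negative without that head, at -1.28 and -1.77. In that head 4 of the 6 E74 transcripts tested were at least 2-fold over the geometric mean of the other queens, as were 14.5% of all transcripts. These transcripts are parts of the sum for which the head stood out. Their count therefore describes how the excess was divided and adds no separate support.

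A form that the other heads used was absent from queen head 3. XM_006558374 (4201 bases) had 565.1, 479.1, 0 and 396.1 normalized counts in 96hQ heads 1 to 4, against 613.9, 664.0, 855.9 and 711.3 in 96hW heads 1 to 4 (log2 fold change -0.98, SE 0.98, adjusted p = 0.619 from edgeR). In its place that head listed 1566 normalized counts of XM_006558376 and 333.0 of XM_006558372, forms that did not pass the filter and that were at 0 in the other heads, save 13.9 of XM_006558372 in 96hW head 2. XM_006558373 and XM_006558375 were at 0 in all 8 heads. The counts are the authors' division of shared reads, and how reliably it separates these forms was not tested.

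Within E74 the shares of estimated counts held by 3 transcripts separated the castes in all heads. XM_006558378 held 10.9%, 13.9%, 47.5% and 16.9% of the counts of the gene in 96hQ heads 1 to 4, against 3.71%, 6.23%, 3.02% and 6.55% in 96hW heads 1 to 4. XM_006558377 held 7.43% to 10.1% in 96hQ and 3.95% to 6.14% in 96hW. XM_006558379 held 61.0%, 59.1%, 16.7% and 53.5% in 96hQ heads 1 to 4, against 65.1%, 63.7%, 66.1% and 63.9% in 96hW heads 1 to 4. For each of them the two-sided exact permutation test gave p = 0.0286, the smallest that 4 against 4 allow, and an adjusted p of 0.171 over 18 shares. On shares of TPM the castes overlapped for XM_006558379, which differed by -12.7 percentage points (same test, adjusted p = 0.471). The differences in TPM were 15.3 points for XM_006558378 and 3.21 points for XM_006558377 (same test, adjusted p = 0.257 for each). The separation in estimated counts was seen for 3 of the 18 shares of Ecr, Usp and E74, and for 8.1% of the 9802 shares of all genes with at least 2 transcripts past the filter. Without 96hQ head 3 the mean share of XM_006558378 differed by 9.02 percentage points (96hQ minus 96hW) and that of XM_006558379 by -6.81 percentage points. Of the other E74 shares, those of XM_006558374, NM_001011631 and XM_006558371 overlapped between castes, with mean differences of -5.70, -1.74 and -0.64 percentage points. The first of these was -1.71 points without 96hQ head 3, where XM_006558374 was at 0.

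**Figure D3:**
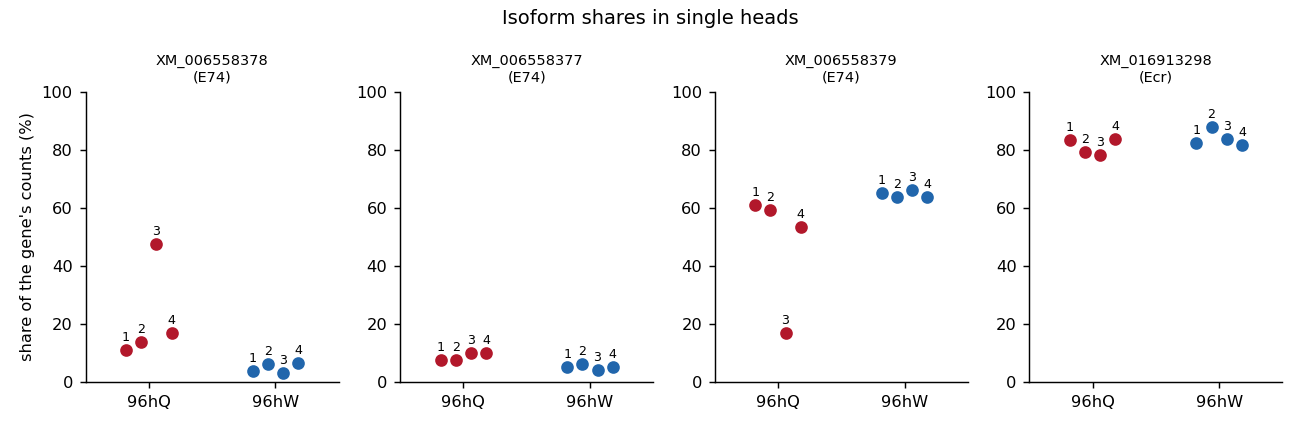
Share of the estimated counts of the gene (percent, vertical axis from 0 to 100) held by 3 E74 transcripts and by the main Ecr transcript in each head, 96hQ in red and 96hW in blue, points numbered by head. The E74 shares did not overlap between castes, while the Ecr share lay between 78.4% and 88.1% in all heads.

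Across the 4 genes 19 of the 26 transcripts passed the filter. None passed an adjusted p of 0.01 with edgeR, where 1.22% of all transcripts did (0.891% with 96hQ higher and 0.332% with 96hW higher). At 0.05, XM_006558379 passed, as did 7.48% of all transcripts, and 4 had an unadjusted p under 0.05, where 23.5% did. DESeq2 called XM_016913298, XM_006558379 and NM_001040257, and it called 11% of all transcripts. It gave no p for the E74 transcripts XM_006558371, XM_006558377 and XM_006558378. With limma-voom 0 of the 19 were called and 0.953% of all transcripts. The castes did not overlap for 5 of the 19 (26.3%), compared with 19.5% of all transcripts tested. The workers were above in 4 of these 5 (8.78% of all transcripts) and the queens in 1 (10.7% of all transcripts).

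Other genes of the hormone pathway were looked up by symbol or synonym from a list of 74 names, and with the 4 above 9 genes matched. Some genes are listed under several names. Names without a match were not examined, so the values below cover only part of the pathway. The other genes that matched were ecd, named for the Drosophila mutant ecdysoneless, and the moult-triggering peptide gene Eth. The transcription factor genes E75, Br-c (the Broad complex) and Mblk-1, the honey bee counterpart of Drosophila E93, matched as well. Of the 8 that passed the filter none was called in either direction at an adjusted p of 0.01 with edgeR, 3 had an unadjusted p under 0.05 (Ecr, Usp and Cyp314a1), as did 41% of all genes, DESeq2 called 2 (23.2% of all genes) and limma-voom none (8.48%). The median log2 fold change was 0.0008 over the 8 genes and 0.0046 over all genes tested, with 4 genes on either side of 0. Without 96hQ head 3 the median of the 8 genes was -0.35.

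The primary response genes E75 and Br-c shared the high value in queen head 3. E75, a nuclear receptor gene, had 4593, 4167, 14473 and 5663 normalized counts in 96hQ heads 1 to 4, against 5010, 6150, 7001 and 6086 in 96hW heads 1 to 4. It was 3.04-fold over the geometric mean of the other queens in head 3. Br-c had 3534, 3543, 6254 and 3358 normalized counts in 96hQ heads 1 to 4, against 3647, 3693, 4423 and 3626 in 96hW heads 1 to 4, and was 1.80-fold over in head 3. A value of at least 1.5-fold was seen in that head for 13.3% of all genes. By normalized counts it was the highest queen for 5 of the 8 pathway genes, and for 31.7% of all genes. In TPM it was below 96hQ head 2 for Cyp314a1 (3.17 against 3.64) and below 96hQ head 4 for Mblk-1 (1.27 against 1.36). It stayed the highest queen in TPM for E74 (160.2 against 44.5 to 54.3), E75 (141.3 against 43.3 to 58.4) and Br-c (88.0 against 57.1 to 64.8). The folds given here are of normalized counts, which depend on the TMM factor. That factor was 0.872 for 96hQ head 3, the lowest of all heads, against 0.995 to 1.07 for the other queens. By normalized counts the same head was at 1.12-fold for Ecr, 0.98-fold for Usp, 1.84-fold for Cyp314a1, 1.29-fold for Mblk-1 and 0.97-fold for ecd. For the more abundant Cyp314a1 transcript, NM_001040257, it was at 0.90-fold. The summed cuticle genes were also highest in this head, at 118258 TPM against 64274 to 82135 TPM in the other queens, and their part in these values was not tested.

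Between castes, the log2 fold change of E75 was 0.25 (SE 0.39, edgeR adjusted p = 0.659), or -0.33 without 96hQ head 3 (SE 0.14, adjusted p = 0.119). That of Br-c was 0.12 (SE 0.20, adjusted p = 0.701 from edgeR), and -0.14 without that head (SE 0.08, adjusted p = 0.228), when the other queens lay below all workers. For ecd, with 877.2 to 958.9 normalized counts in 96hQ and 876.6 to 995.3 in 96hW, the log2 fold change was -0.06 (SE 0.06). Mblk-1 varied among the worker heads more than among the queen heads, with 412.5, 364.4, 526.3 and 453.5 normalized counts in 96hQ heads 1 to 4, against 526.3, 183.8, 729.7 and 241.5 in 96hW heads 1 to 4 (log2 fold change 0.06, SE 0.41). Eth was near 0 in all heads but 96hW head 4, at 24.1 normalized counts, and was not tested.

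**Figure D4:**
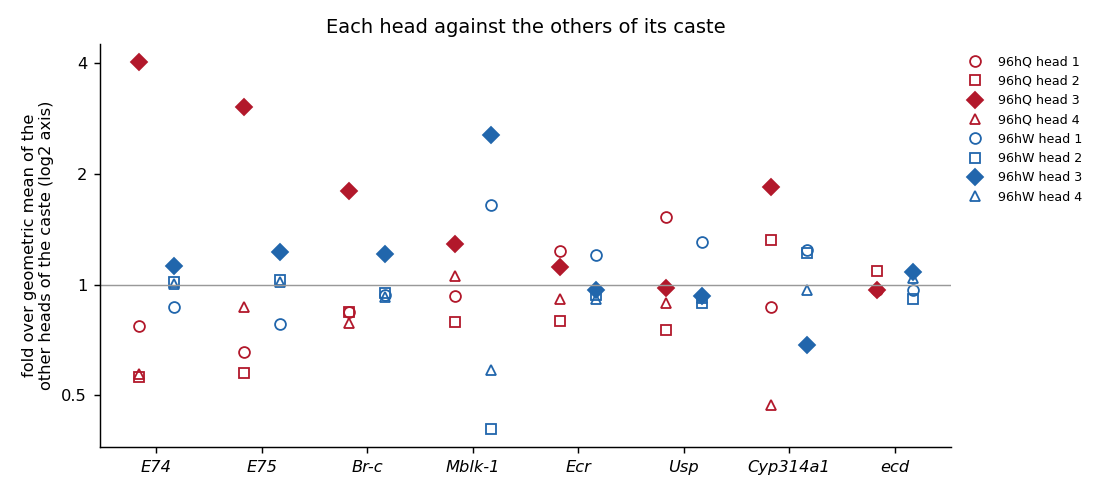
Fold of each head over the geometric mean of the other 3 heads of its caste (log2 axis) for 8 genes, 96hQ in red to the left of 96hW in blue within each gene, with head 3 filled. The 96hQ head 3 was at 4.02 for E74, 3.04 for E75, 1.84 for Cyp314a1, 1.80 for Br-c and 1.29 for Mblk-1, and between 0.97 and 1.12 for Ecr, Usp and ecd.

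**Figure D5:**
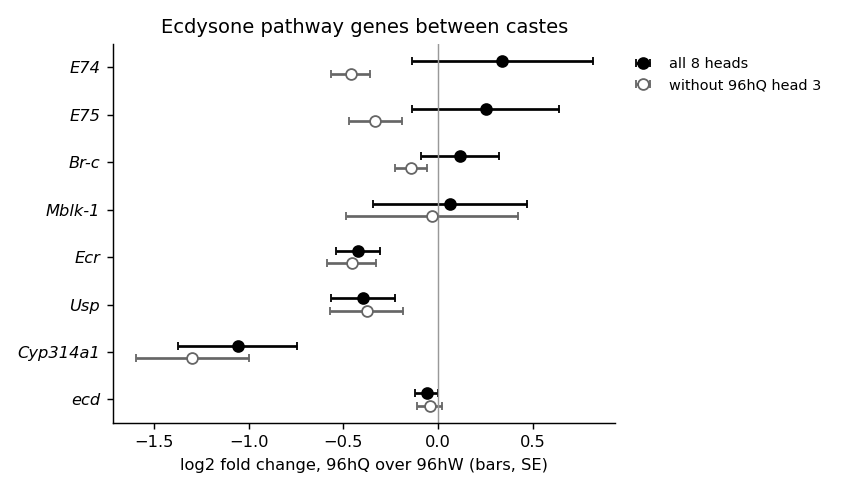
Log2 fold changes of 96hQ over 96hW (horizontal axis, bars are SE) for 8 ecdysone pathway genes over all 8 heads (filled) and without 96hQ head 3 (open). E74 was at 0.34 over all heads and at -0.46 without that head, while Ecr (-0.42 and -0.46) and Cyp314a1 (-1.06 and -1.30) stayed below 0.

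Genes whose levels ran most like each member over the 8 heads were found among the 6700 other genes with a mean of at least 100 normalized counts (6701 for Cyp314a1). The measure was Pearson's r of log2 normalized counts, given as a description of 8 points that also share caste and library. Closest to Ecr were LOC408670 (r = 0.991), LOC102655980 (0.977) and LOC107964206 (0.976). Closest to Usp were LOC100577174 (r = 0.989), LOC724886 (0.986) and LOC408874 (0.983). Closest to E74 were LOC408694 (r = 0.992), LOC413357 (0.988) and LOC725625 (0.978), all highest in 96hQ head 3. LOC408694 had 6806 normalized counts there, against 3110 to 3638 in the other queens and 3932 to 4224 in the workers. E74 itself had 11786 normalized counts in that head and 2698 to 4441 in the others. Its r values therefore lean on a single head, and r without that head was not computed. Closest to Cyp314a1 were LOC724251 (r = 0.982), LOC408316 (0.955) and LOC551914 (0.948). LOC724251 had 131.7 to 236.9 normalized counts in 96hQ and 277.0 to 379.1 in 96hW.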

How the data were processed

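Poly(A)-selected, strand-specific RNA from single larval heads was sequenced as 100 bp paired ends. The authors quantified transcripts with kallisto, whose version is not given in the sources used here, and deposited estimated counts, not normalized between libraries, and TPM, scaled per length within a library. The methods name an Ensembl Metazoa set of transcripts, while the files carry RefSeq accessions. Transcripts were paired with genes by accession root through a RefSeq table of Amel_HAv3.1, from which only names were taken: 17723 transcripts (61.7%) matched 9161 genes, 1449 of them with the same accession version. No coordinates or sequences are given.

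Counts were summed per gene, filtered (at least 5 counts in at least 4 libraries), rounded and tested with edgeR 4.0.16 (TMM, caste only, adjusted p under 0.01) in R 4.3.3. Single values were compared by exact permutation (scipy 1.17.1). Standard errors are the log2 fold change over the root of F. Alternatives were RLE and upper-quartile factors, other filters and thresholds, DESeq2 1.42.0, limma 3.58.1 on voom weights and on log2 TPM, a replicate block and each head left out. A robust prior and the omission of 96hQ head 3 with 96hW head 1 were added after the data were seen. The fit was tested on simulated data. Members and lists were chosen with earlier results of these data known. The genes named are the members, their transcripts, the pathway genes that matched and the 3 genes most correlated with each member. No silk gland marker matched.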

Additional observations from a re-analysis of the deposited data

Results flagged for a closer look

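Single heads stood apart from the other 3 heads of their caste by Dixon's test in 12 of 56 groups of 4, and 7 of the 12 were 96hQ head 3. The groups are not independent, since they hold genes together with their own transcripts, from the same heads. The 12 can therefore not be set against the 1 in 20 of independent groups. A share over all features is given below only for 96hQ head 3. The ratio printed is the gap to the nearest head over the range of the group, set against the critical value at 95% for 4 samples. The 96hQ head 3 was highest for the genes E74 (0.920), E75 (0.855) and Br-c (0.936), and for the E74 transcripts NM_001011631 (0.884), XM_006558371 (0.896), XM_006558377 (0.930) and XM_006558378 (0.982). By the same rule this head stood apart at the top of the queens for 3.25% of all genes and 2.76% of all transcripts tested. The 96hQ head 2 was highest for ecd (0.884), with 958.9 normalized counts. The 96hW head 1 was highest for Usp (0.905), with 4282 normalized counts. The 96hW head 3 was highest for Br-c (0.915) and lowest for the Cyp314a1 transcript NM_001040257 (0.833). The 96hW head 4 was lowest for NM_001011631 (0.893), in a group that spanned 227.4 to 252.4 normalized counts.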

How the results depend on the processing

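Ecr, Usp and Cyp314a1 kept a negative log2 fold change under all 20 alternatives, and so did the E74 transcripts XM_006558374 and XM_006558379. XM_006558377 (0.267 to 1.504) and XM_006558378 (0.92 to 3.46) stayed positive. Among the 20, the threshold of 0.05 and the robust prior leave the fold change of the main fit as it is, so they could not have changed a sign. The count of calls, 0 for the genes, the transcripts and the pathway list, became 2, 3 and 2 with DESeq2 and 2, 1 and 2 at a threshold of 0.05. With DESeq2 the log2 fold change was -0.43 for Ecr and -1.07 for Cyp314a1, and at 0.05 the values of the main test, -0.42 and -1.06, passed. All genes had a median of -0.14 on log2(TPM + 1) and of -0.16 on log2(TPM + 0.1). With 1 added, the log2 fold change was -0.20 for E74, -0.13 for E75, -0.0883 for Br-c, -0.0090 for Mblk-1, -0.66 for NM_001011631 and -0.24 for XM_006558371. With 0.1 added, it was -0.20 for E74, -0.13 for E75, -0.0897 for Br-c, -0.80 for NM_001011631 and -0.87 for XM_006558371. With limma-voom it was -0.73 for NM_001011631 and -1.12 for XM_006558371. Without both 96hQ head 3 and 96hW head 1 it was -0.51 for E74, -0.41 for E75, -0.17 for Br-c, -1.27 for NM_001011631, -1.68 for XM_006558371 and 0.19 for XM_006561549. The Ecr to Usp ratio differed by -0.015 on estimated counts. The cause of these turns was not tested, except that fits without 96hQ head 3 lack its values.

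Leaving out each head in turn gave log2 fold changes between -1.30 and -0.85 for Cyp314a1, -0.46 and 0.55 for E74, -0.50 and -0.35 for Ecr, -0.14 and 0.21 for Br-c, -0.33 and 0.44 for E75, -0.19 and 0.47 for Mblk-1, -1.28 and 0.66 for NM_001011631, -2.06 and 0.36 for NM_001011634, -1.77 and 0.48 for XM_006558371, -0.61 and 0.24 for XM_006561549, a ratio difference between -0.0009 and 0.13, and share differences between -7.61 and 0.50 percentage points for XM_006561550 and between -0.46 and 1.41 for XM_006561552.

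Replicate numbers did not pair the heads: the correlations of deviations between same-numbered queen and worker heads ran from -0.063 to 0.077, and not every head correlated best with its own number. With a replicate block the log2 fold change was -0.43 for Ecr, -0.41 for Usp, 0.0119 for E74, -1.13 for Cyp314a1, -0.66 for NM_001011631 and -1.05 for XM_006558371, and 0 of the 4 genes were called. The adjusted p from edgeR with the block was 0.0295 for Ecr, 0.0301 for Usp, 0.986 for E74 and 0.0825 for Cyp314a1. It was lower than without the block for Ecr and Usp and higher for E74, Cyp314a1 and the E74 transcript XM_006558379 (0.118).

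Over all genes 702 were called (425 higher in 96hQ, 277 in 96hW), 1893 with DESeq2, 234 on log2(TPM + 1) (89 higher in 96hQ, 145 in 96hW), 227 on log2(TPM + 0.1), 10 with the block and 142 to 774 without 1 head. Over all transcripts 254 were called, 2289 with DESeq2, 159 with no filter, 85 and 91 on log2 TPM, 1 with the block, 35 without both heads and 2 to 147 without 1 head. Depth limits Eth, which did not pass the filter, and Cyp314a1, at 34.5 to 134.2 estimated counts.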
